A study of Mus musculus with 2 samples.

Results

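The mouse Mir181 family was examined in microRNA sequencing of the adrenal gland, across its 6 hairpin genes at 3 chromosomal clusters. The members were taken by symbol from the 2202 miRNA genes of the deposited tables, and all 6 were found: Mir181a-1 with Mir181b-1, Mir181a-2 with Mir181b-2, and Mir181c with Mir181d. The samples were 2 libraries of 1 group, wild-type C57BL/6J adrenal tissue with no treatment named, and age and stage were given as unknown. One label called the mice male while the sex field held no entry. The libraries were numbered biological replicates 1 and 2 but carried the same donor record, so the spread between them may be technical and no conditions could be compared.

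Each Mir181 gene encodes a hairpin whose 5p arm gives a miR-181 molecule. Such molecules pair with messenger RNAs through the seed, bases 2 to 8, and lower their translation or stability, so arms with the same seed can act on overlapping sets of targets. MiR-181a is known in mouse T cells for setting the sensitivity of the T cell receptor by lowering phosphatases of that pathway, and miR-181b is known in mouse endothelium for dampening NF-kB signalling. MiR-181c is known in rat heart cells for acting on a mitochondrially encoded subunit of cytochrome c oxidase, and miR-181d in human glioma for lowering the DNA repair enzyme MGMT.

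The 5p arms are shown first because they define the family and decide which reads could be placed at 1 gene. They come from RefSeq on GRCm38.p6, run 5′ to 3′, and carry the seed in capitals.
miR-181a-5p, from Mir181a-1 and Mir181a-2: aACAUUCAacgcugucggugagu
miR-181b-5p, from Mir181b-1 and Mir181b-2: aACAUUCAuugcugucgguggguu
miR-181c-5p, from Mir181c: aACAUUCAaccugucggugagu
miR-181d-5p, from Mir181d: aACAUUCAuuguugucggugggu
All 6 genes shared 1 seed on this arm, and no other gene among 1738 RefSeq mature entries carried it. With positions counted from 1 at the 5′ end, miR-181d-5p differed from miR-181b-5p at C12U and ended 1 base earlier, and miR-181c-5p differed from miR-181a-5p by the loss of 1 base, G11del. MiR-181b-5p differed from miR-181a-5p at A9U, C10U and A21G and was 1 base longer. By sequence the 5p arms thus formed an a and c pair and a b and d pair, and each cluster held 1 gene of either pair.

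The 3p arms, also from RefSeq with bases 2 to 8 in capitals, are shown because they alone were distinct at all 6 genes.
miR-181a-1-3p: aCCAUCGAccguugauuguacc
miR-181a-2-3p: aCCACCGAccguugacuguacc
miR-181c-3p: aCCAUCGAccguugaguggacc
miR-181b-1-3p: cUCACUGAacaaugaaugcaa
miR-181b-2-3p: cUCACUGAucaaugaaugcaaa
miR-181d-3p: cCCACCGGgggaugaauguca
These arms carried 4 different seeds, 1 shared by Mir181a-1 and Mir181c and 1 shared by Mir181b-1 and Mir181b-2. From miR-181a-1-3p, miR-181a-2-3p differed at U5C and U16C and miR-181c-3p at U16G and U19G, while miR-181b-2-3p differed from miR-181b-1-3p at A9U and was 1 base longer. The longest run that any 3p arm shared with another miRNA gene was 15 nt, between Mir181a-1 and Mir181c.

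The copies of the a and b genes could not be told apart by a read of the 5p arm. MiR-181a-5p lay whole in the hairpins of Mir181a-1 and Mir181a-2, and miR-181b-5p in those of Mir181b-1 and Mir181b-2. The 5p arms of Mir181c and Mir181d were found whole at 1 gene each. Their longest unbroken runs shared with another miRNA gene were 12 and 11 nt. Even so, miR-181c-5p differed from miR-181a-5p by G11del alone, and miR-181d-5p from miR-181b-5p by C12U and its earlier end. Whether reads were misplaced between such arms was not tested. The next stretch shows each copied arm with the 10 bases after it in the hairpin, and capitals mark the bases that differ between copies.
Mir181a-1: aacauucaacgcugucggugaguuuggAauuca
Mir181a-2: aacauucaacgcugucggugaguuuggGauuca
Mir181b-1: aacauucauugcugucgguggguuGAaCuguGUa
Mir181b-2: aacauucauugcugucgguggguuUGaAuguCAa
The a copies were identical for 28 nt and first differed 5 bases after the arm, and the b copies were identical for 26 nt and differed at the base directly after the arm. In these tables reads that aligned to several places entered no gene. Counts of the 4 copied genes thus cover reads of other parts of the hairpin or reads that ran past these stretches. Their levels below leave out an unknown number of reads. Whether reads were also misplaced between the copies was not tested. Among 1018 miRNA genes matched to RefSeq mature sequences, 94 (9.23%) had an arm that was also made at another locus, and 4 of the 6 Mir181 genes were among these. Multimapping reads numbered 6718323 in replicate 1 and 2415794 in replicate 2, which was 423 and 499 times the reads assigned to the family, and they are not split by gene. The RefSeq table gave a hairpin sequence for 5 of the 6 genes, without Mir181c, and the comparison was made with annotated miRNA sequences, not with the whole genome.

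**Figure D1:**
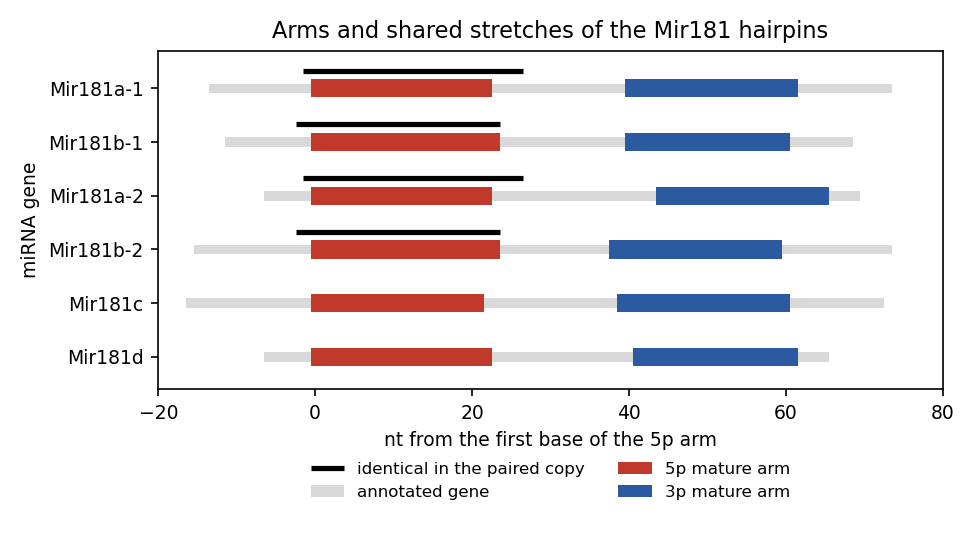
Map of the 6 Mir181 hairpins, drawn to scale in nt from the first base of the 5p arm (grey, annotated gene; red, 5p arm; blue, 3p arm). Black lines mark stretches of at least 20 nt that are identical in the other copy: they cover the whole 5p arm of the 4 a and b genes (28 nt for the a copies, 26 nt for the b copies) and no 3p arm.

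On mm10, Mir181a-1 (ENSMUSG00000065565.1) lies on the plus strand of chromosome 1 from 137966455 to 137966541, and Mir181b-1 (ENSMUSG00000065458.1) lies from 137966639 to 137966718, 97 nt downstream. In GENCODE M21 both fall in an intron of the noncoding gene Gm4258, and an exon of the lincRNA A430106G13Rik on the same strand starts inside Mir181a-1 and contains Mir181b-1. Mir181a-2 (ENSMUSG00000065423.1) lies on the plus strand of chromosome 2 from 38852735 to 38852810 and Mir181b-2 (ENSMUSG00000065578.1) from 38853830 to 38853918, with 1019 nt between them. Both are opposite an intron of Nr6a1, an orphan nuclear receptor gene of the minus strand, and Mir181b-2 is also opposite an exon of the unclassified transcript Gm44144. Mir181c (ENSMUSG00000065483.2) lies on the minus strand of chromosome 8 from 84178873 to 84178961 and Mir181d (ENSMUSG00000076338.1) from 84178716 to 84178787, 85 nt apart, in an intron of 1 transcript of Nanos3, a germ cell gene of the same strand. No read was counted on the opposite strand of any of the 6 genes in either library.

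Replicate 1 held 10263894 counts assigned to miRNA genes and replicate 2 held 3525666, so a gene with 0 reads could lie at up to 0.292 CPM (counts scaled to 1000000 assigned counts) or 0.851 CPM, the level of 3 counts. Unmapped reads made up 13.8% and 41.4% of these libraries, and the part of this difference in the values below was not tested. Among miRNA genes of the cell types the organ holds or borders, the 4 neuroendocrine genes led by Mir375 summed to 73420 and 80086 CPM, and endothelial Mir126a had 89916 and 95595 CPM. All 6 leukocyte genes were detected and summed to 2284 and 2323 CPM, and the 9 neuronal genes summed to 610 and 856 CPM with 2 detected. Neuronal Mir137 made up most of that sum with 595 and 823 CPM, while the 3 Mir124a genes, which mark neurons, had no count. The part of leukocyte and other cell types in the Mir181 levels was not tested. Mir122, the liver miRNA gene, had 103.6 and 97.6 CPM. The 5 skeletal muscle genes summed to 2.14 and 2.55 CPM. Mir124a, Mir9, Mir128 and muscle Mir1a and Mir133a are multicopy genes, so their zeros and low counts set no limit.

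Among reads placed at 1 gene, the family's counts came mostly from the chromosome 8 cluster. The 6 genes summed to 1546 CPM (replicate 1) and 1374 CPM (replicate 2), with a mean of 1460 ± 122 CPM (SD, n = 2) or 0.146% ± 0.012 of assigned counts. With detection set at 10 CPM or more in both libraries, 5 of the 6 genes (83.3%) were detected, beside 267 of all 2202 miRNA genes (12.1%). Mir181b-1 was the exception. In bulk tissue, fewer cells of a type and less RNA per cell cannot be told apart, so these levels do not say which adrenal cells carried the family.

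Mir181c and Mir181d, the source of miR-181c and miR-181d, were the 2 highest members. Mir181c had 6125 counts or 597 CPM in replicate 1 (exact 95% binomial interval 582 to 612) and 2348 counts or 666 CPM in replicate 2 (639 to 693), and ranked 89th of 2202 genes by mean. Mir181d had 6397 counts or 623 CPM in replicate 1 (608 to 639) and 1572 counts or 446 CPM in replicate 2 (424 to 468), and ranked 98th. The ranges of these neighbours overlapped, and Mir181d was above Mir181c in replicate 1 and below it in replicate 2. All intervals reflect counting error alone, because PCR copies of 1 molecule and separate molecules look the same in these counts.

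Mir181b-2 and Mir181a-1 followed. Mir181b-2, a source of miR-181b, had 2119 counts or 206 CPM in replicate 1 (198 to 215) and 354 counts or 100.4 CPM in replicate 2 (90.2 to 111). Mir181a-1, a source of miR-181a, had 1003 counts or 97.7 CPM in replicate 1 (91.8 to 104) and 424 counts or 120.3 CPM in replicate 2 (109 to 132). Their order also turned between the libraries and their ranges overlapped, so by spread these neighbours were not separated. Mir181d, above them, stood 3.48-fold over Mir181b-2 by mean with no overlap.

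Mir181a-2 and Mir181b-1, the remaining copies, were the lowest. Mir181a-2 had 194 counts or 18.9 CPM in replicate 1 (16.3 to 21.8) and 145 counts or 41.1 CPM in replicate 2 (34.7 to 48.4), with ranges below those of Mir181a-1 in both libraries. Mir181b-1 had 31 counts or 3.02 CPM in replicate 1 (2.05 to 4.29) and 2 counts or 0.567 CPM in replicate 2 (0.0687 to 2.05). It lay below Mir181a-2 in both libraries and ranked 363rd of 2202 genes. Because the 4 copied genes lose their 5p reads, their place below Mir181c and Mir181d in this order is a statement about reads placed at 1 gene, and the amounts of mature miR-181a and miR-181b cannot be read from it.

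**Figure D2:**
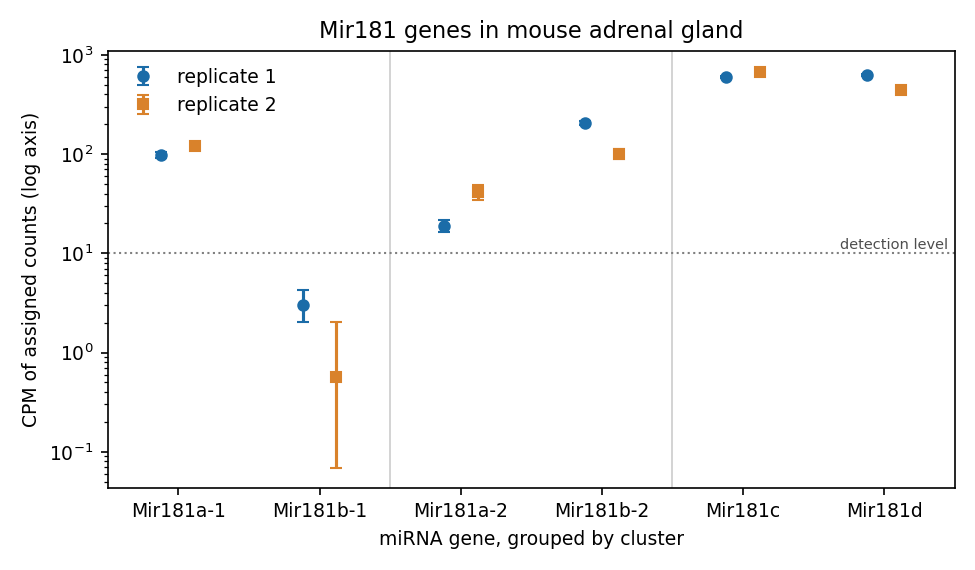
Level of each Mir181 gene in replicate 1 (circles) and replicate 2 (squares) in CPM of assigned sense counts on a log axis, with exact 95% binomial intervals; vertical lines part the clusters and the dotted line is the detection level of 10 CPM. Mir181c and Mir181d lie between 446 and 666 CPM, and Mir181b-1 is the sole gene under the line, at 3.02 and 0.567 CPM.

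By cluster, Mir181c and Mir181d gave 78.9% of the family's counts in replicate 1 and 80.9% in replicate 2, a mean of 79.9% ± 1.41 (SD, n = 2). The a-2/b-2 cluster gave 14.6% and 10.3%, and the a-1/b-1 cluster gave 6.52% and 8.79%. In CPM the c/d cluster had 1220 and 1112, the a-2/b-2 cluster 225 and 142, and the a-1/b-1 cluster 100.7 and 120.8. Among reads placed at 1 gene, the 3 clusters therefore kept 1 order in both libraries with ranges that did not overlap. The c/d cluster stood 5.41-fold and 7.86-fold above a-2/b-2, and a-2/b-2 stood 2.24-fold and 1.17-fold above a-1/b-1. Both lower clusters hold only copied genes. The part of their unassigned 5p reads in the step below c/d, or in the order of a-2/b-2 and a-1/b-1, was not tested.

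Within a cluster, the balance of the paired genes differed widely. At a-1/b-1, Mir181b-1 gave 3.0% of the cluster's counts in replicate 1 (exact 95% interval 2.05% to 4.23%) and 0.469% in replicate 2 (0.0569% to 1.69%). At a-2/b-2 the b gene was the larger, and Mir181b-2 gave 91.6% in replicate 1 (90.4% to 92.7%) and 70.9% in replicate 2 (66.7% to 74.9%). Among reads placed at 1 gene, the clusters with copies were thus opposite in balance. The a gene was ahead at chromosome 1 and the b gene at chromosome 2 in both libraries. All of these copied genes lose 5p reads, and the shared stretch is 28 nt for the a copies and 26 nt for the b copies. The part of this loss in the balance was not tested. At c/d, Mir181d gave 51.1% in replicate 1 (50.2% to 52.0%) and 40.1% in replicate 2 (38.6% to 41.7%). In each of the 3 clusters the share of the b or d gene was lower in replicate 2, and the intervals of the libraries did not overlap. These shares do not depend on how the libraries were scaled, but they cover only reads placed at 1 gene.

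**Figure D3:**
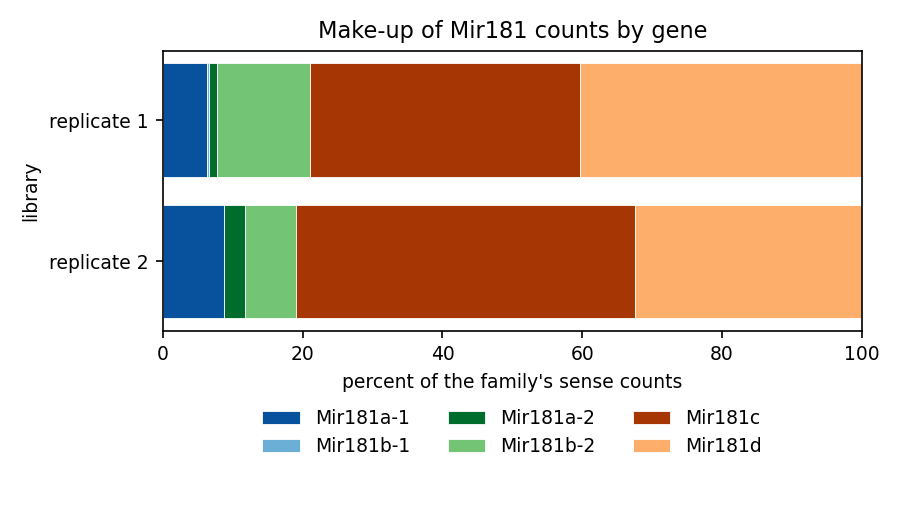
Percent of the family's sense counts that each Mir181 gene gave in either library, from 0 to 100. The c/d cluster (brown and orange) takes 78.9% and 80.9%, and within it Mir181d shrinks from 40.3% of the family in replicate 1 to 32.4% in replicate 2 while Mir181c grows from 38.6% to 48.5%.

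The replicate libraries differed at every member, and the genes of each cluster differed in opposite directions. In a per-gene binomial test (exact and two-sided) with TMM scaling and Benjamini-Hochberg adjustment over 443 miRNA genes, 6 of 6 members differed between the libraries at 0.05, beside 52.8% of all genes tested. The 3 a and c genes were higher in replicate 2, as were 21.2% of all genes, and the 3 b and d genes were higher in replicate 1, as were 31.6%. This test compares 2 libraries and not conditions, and it passes small differences of genes with many counts. Like the intervals, its p-values reflect counting error alone and leave out further spread between libraries. The shares of all genes tested include genes with far fewer counts than most members, so they are not a background of like level. Whether the members differed more often than genes of like level was not tested. The a and c grouping was noticed after the values were seen and is given as a description. Members of either group were alike in 5p sequence, and what reads or arms carried the difference was not tested.

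Among the a and c genes, Mir181a-2 moved most, with a log2 ratio of replicate 2 over replicate 1 of 1.11 (95% interval 0.78 to 1.42; adjusted p = 5.82e-11, exact binomial test). Mir181a-1 had a log2 ratio of 0.28 (0.11 to 0.45; adjusted p = 0.00199, exact binomial test) and Mir181c one of 0.14 (0.07 to 0.21; adjusted p = 0.00016, exact binomial test). By CPM, Mir181a-1 was 1.23-fold and Mir181c 1.12-fold higher in replicate 2. Together these genes had 713 and 827 CPM, or 46.1% (45.4% to 46.9%) and 60.2% (58.8% to 61.6%) of the family's counts.

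Among the b and d genes, Mir181b-2 had a log2 ratio of -1.06 (-1.22 to -0.89; adjusted p = 6.71e-43, exact binomial test) and Mir181d one of -0.50 (-0.58 to -0.42; adjusted p = 1.81e-36, exact binomial test). Mir181b-1 had a log2 ratio of -2.13, but its interval ran from -5.54 to -0.46 because it rests on 31 and 2 counts (adjusted p = 0.0168, exact binomial test). Together they had 833 and 547 CPM, or 53.9% and 39.8% of the family's counts. The median of the 6 log2 ratios was -0.18, near the -0.17 of all genes tested, while the median size of the ratio was 0.78 for members and 0.45 for all genes tested. The family sum had a log2 ratio of -0.19, smaller in size than that of 5 of the 6 members.

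**Figure D4:**
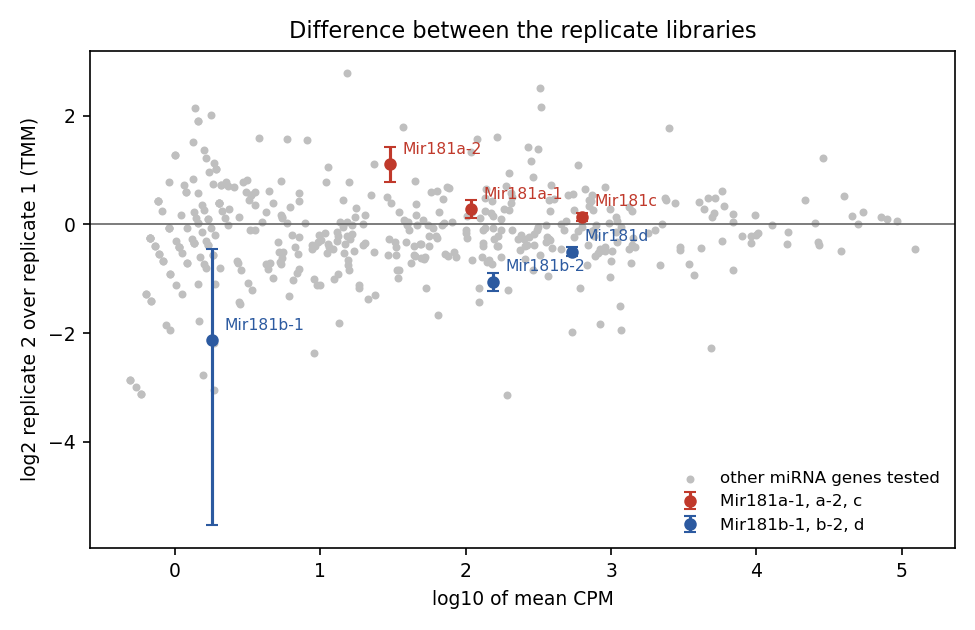
Log2 ratio of replicate 2 over replicate 1 with TMM scaling against log10 of mean CPM for the 443 miRNA genes tested (grey), with the Mir181 a and c genes in red and the b and d genes in blue and their exact 95% intervals. The red points lie above 0, from 0.14 to 1.11, and the blue points lie below it, from -0.50 to -2.13.

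Other miRNA genes near the clusters were annotated at chromosome 8 alone, within 50 kb of a member. Mir23a, Mir27a and Mir24-2 lie 29.6 to 29.9 kb from Mir181c on the opposite strand. Mir23a, a broadly expressed miRNA gene, had 49348 and 58461 CPM, Mir27a had 675 and 817 CPM and Mir24-2 had 203 and 375 CPM, and all 3 were higher in replicate 2 by the same test, as Mir181c was and Mir181d was not. Mir3074-2, opposite Mir24-2, had 2 counts and 1 count, and Gm25110 had none. MiR-24-3p from Mir24-2 is also held whole by Mir24-1, and miR-3074-5p from Mir3074-2 by Mir3074-1. The levels of Mir24-2 and Mir3074-2 thus leave out reads of these arms, as for the Mir181 copies. No arm of Mir23a or Mir27a was found whole at another miRNA gene.

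The miRNA genes closest in level to the leading member of each cluster were found by the distance of log2(CPM + 1) over the 2 libraries. For Mir181c they were Mir342 (distance 0.13), Mir154 (0.23) and Mir376c (0.25). For Mir181b-2 they were Mir30c-2 (0.24), Mir155 (0.28) and Mir673 (0.28), and for Mir181a-1 they were Mir374b (0.05), Mir329 (0.15) and Mir122 (0.31). Of these 9 genes, Mir342 and Mir155 are on the leukocyte list, with 636 and 623 CPM and with 172 and 108 CPM. The other leukocyte genes, Mir142, Mir150, Mir223 and Mir146, were not among the 9. Mir122 is the liver gene given above. Mir154, Mir376c, Mir673 and Mir329 all lie on chromosome 12, between 109571990 and 109738498. With 2 libraries, such likeness is one of level and carries no test.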

How the data were processed

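Each library came as 1 deposited table of raw counts, with 3 count columns and 4 summary lines; genome build mm10 and annotation GENCODE M21 are named per the file headers of the accompanying descriptions, and the labels give inserts under 30 nt from total RNA. The sources used here name neither aligner nor counter. The column holding sense counts was used, and summary lines stayed out of library sizes.

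All 2202 identifiers matched GENCODE M21. CPM was computed over assigned sense counts (10263894 and 3525666). Replicate ratios add 0.5 counts and are scaled by TMM (edgeR 4.0.16, R 4.3.3). Genes whose libraries summed to 10 counts or more were tested by an exact binomial test with Benjamini-Hochberg adjustment. The test was checked on simulated counts with counting error alone, so that check does not cover further spread between libraries. With 1 group of 2 libraries, quasi-likelihood and DESeq2 tests had no contrast, and DESeq2 1.42.0 gave size factors only. Sequences came from RefSeq (GRCm38.p6). Python 3.11.15, scipy 1.17.1 and matplotlib 3.10.9 did the rest.

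Members, marker lists, thresholds and alternatives were chosen with earlier results of these data known. The text names the 6 members, genes sharing their seed, miRNA genes within 50 kb and the 3 nearest in level per cluster.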

Additional observations from a re-analysis of the deposited data

How the results depend on the processing

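The 6 replicate ratios kept their direction and their side of the 0.05 threshold under total-count scaling, DESeq2 size factors, no filter on low counts and counts without regard to strand. The count of genes differing between libraries stayed between 206 and 231, against 234. The number tested changed in 2 settings, so the share called was not fixed. It was 234 of 443 genes in the main setting, 226 of 767 with no filter on low counts and 206 of 418 without regard to strand. Over all mapped reads, multimapping ones included, all members fell: the mean level was 62.3 CPM for Mir181a-1, 1.03 for Mir181b-1, 17.1 for Mir181a-2, 88.1 for Mir181b-2, 361 for Mir181c and 306 for Mir181d, and 63.3, 105.2 and 667 CPM for the a-1/b-1, a-2/b-2 and c/d clusters. Over uniquely mapped reads the c/d cluster had 1082 CPM. With counts taken without regard to strand, Mir181c had 721 CPM, a-1/b-1 126 CPM and c/d 1331 CPM. With the most abundant miRNA gene left out of the total, they had 720 (Mir181c), 126 (a-1/b-1) and 1333 (c/d) CPM. These shifts come from the larger or smaller total by construction. At a minimum of 100 CPM in both libraries 3 members were detected, not 5. Each library alone gave values already printed as replicate 1 and replicate 2, and 5 members detected in either. No paired analysis was possible because there is 1 group. Depth limits Mir181b-1, with 31 and 2 counts, and the a and b genes are also limited by the unknown loss of reads shared by their copies.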
